A study of Mus musculus with 6 samples.

Results

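The genes described here encode GATA1 and the proteins that sit with it on DNA in blood cells: the GATA factors Gata1 and Gata2, the cofactor Zfpm1 (FOG1), the basic helix-loop-helix proteins Tal1, Lyl1 and Tcf3, the bridging proteins Lmo2 and Ldb1, and the associated factors Cbfa2t3 and Ssbp3. They were chosen by name from the deposited table, which held all 10 of them, each in a row of its own, among 26014 genes. RNA came from mouse fetal livers at embryonic day 14.5, and 3 wild-type libraries (WT) were set against 3 whose genotype is labelled Gata1 3′ UTR knockout (KO), all untreated. The 3′ UTR is the stretch of messenger RNA after the stop codon, and how much of it was deleted is not stated in what was used here. The labels call the material primary cells and embryonic hepatocytes, name no strain and mention no sort. They do not say whether each library came from a separate embryo or pool, so the p-values rest on a spread between libraries that may be technical only.

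GATA1 is the zinc finger transcription factor that drives erythroid and megakaryocytic differentiation, and it binds GATA motifs. In erythroid cells it is found in a complex in which TAL1, paired with an E protein such as TCF3, binds E-boxes, while LMO2 and LDB1 bridge the DNA-binding partners. GATA2 occupies many of the same sites in earlier progenitors and is replaced by GATA1 as red cells mature, an exchange known as the GATA switch. Definitive red cells of the mouse embryo are made mainly in the liver at this stage.

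The deposited unit is FPKM (fragments scaled by exon length and library size). The length that gave whole fragments is that of all annotated exons merged, so comparisons of level between genes depend on the annotation. In GENCODE M21 the merged exons of Ldb1 span 4606 bases and its first-numbered transcript 1718. For Cbfa2t3 these are 8373 and 3161, and for Lyl1 both are 1800. The step between neighbouring low values gave a depth of 14826837 to 16215502 fragments per library, and 98.8% to 99.0% of 7719 to 8099 low values checked per library fell within 0.02 of a whole fragment. At this depth 3 fragments on 1 kb of exon amount to 0.185 to 0.202 FPKM, a limit of counting alone. WT replicate 1 had the highest sum of FPKM over all genes, 491620, while the remaining libraries summed to between 400545 and 421672. Every member was far above that limit of counting, the least covered being Gata2 with 418 to 942 fragments per library. The labelled hepatocytes and red cell precursors were both present: 8 erythroid markers summed to 5568 to 6187 FPKM in WT and 4501 to 4881 in KO, and 7 hepatoblast markers to 391.2 to 2306 in WT and 1009 to 1391 in KO. In such bulk samples fewer cells of a type and less RNA per cell cannot be told apart.

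Gata1 and Lmo2 fell in KO, Lyl1 and Tcf3 rose, and the other 6 members did not pass the test (limma on log2 of FPKM + 1, Benjamini-Hochberg adjusted p under 0.05 over 11142 tested genes). So 2 of the 10 were higher and 2 lower, where 9.55% of all tested genes were called, 5.93% as higher and 3.62% as lower. Of the 2 lower, Gata1 is the targeted gene itself, so that count is not one of responding partners alone. All KO libraries lay above all WT libraries for 6 members and below them for 2, while 35.6% of all tested genes were apart, 26.8% upwards and 8.8% downwards. Only Ldb1 and Cbfa2t3 had overlapping groups. The median log2 fold change of the 10 was 0.25, against 0.09 over all tested genes.

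**Figure D1:**
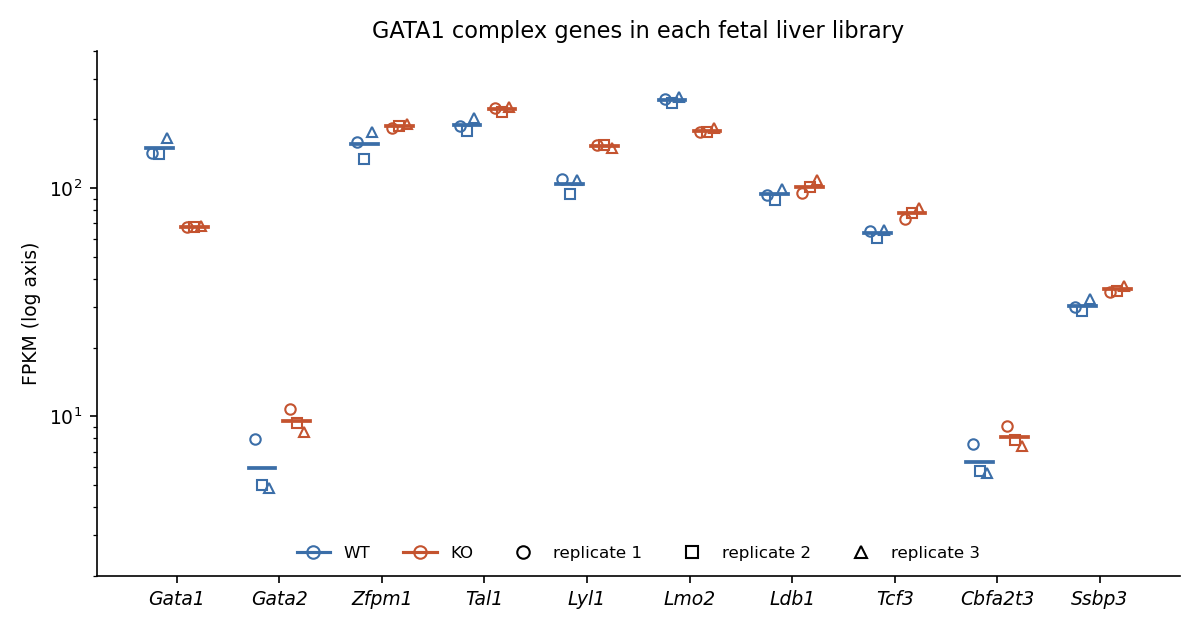
Level of each of the 10 genes in FPKM, on a log axis, in the 3 WT libraries (blue) and the 3 KO libraries (red), with symbols for the replicate number and a bar at each group's mean. Gata1 went from 150.1 to 67.7 FPKM on average and Lmo2 from 244.0 to 178.4, while Lyl1 went from 104.2 to 153.2.

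Gata1 (ENSMUSG00000031162, chrX:7959260-7978071, minus strand) had 142.9, 141.8 and 165.8 FPKM in the WT libraries and 67.2, 67.7 and 68.2 in the KO libraries. All KO libraries were below all WT libraries, and they lay close together, with a coefficient of variation of 0.717% where counting alone gives 1.96%. The mean in KO was 45.1% of that in WT, and the log2 fold change was -1.13 (95% confidence interval -1.30 to -0.97, limma, adjusted p = 0.000638). FPKM also counts fragments of the targeted UTR, which spans 497 of the 1902 bases of its first-numbered coding transcript in GENCODE M21. If coverage were even and KO had no fragment at all from it, the KO mean would correspond to 91.6 FPKM, or 61.0% of the WT mean. Coverage along the gene cannot be seen in these values.

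Gata2 (ENSMUSG00000015053, chr6:88193891-88207032, plus strand), the progenitor GATA factor, stood at 7.91, 5.004 and 4.86 FPKM in WT and at 10.8, 9.38 and 8.51 in KO. The groups did not overlap, but WT replicate 1 was well above the other WT libraries and near the lowest KO library. The log2 fold change of 0.63 (SE 0.173) did not pass (limma, adjusted p = 0.066), and its interval of 0.22 to 1.04 is the widest among the members. Without WT replicate 1 it became 0.83 and passed (limma, adjusted p = 0.0204, with 0.0175 to 0.205 over all alternatives). Mast cells and basophils also use GATA2, and the sum of 7 of their markers was highest in WT replicate 1. It was 38.9, 25.9 and 29.7 FPKM in WT and 34.1, 32.5 and 29.2 in KO. Taken singly, Mcpt8, Hdc, Ms4a2 and Prss34 were highest in that library, while Cpa3, Fcer1a and Il1rl1 were not. Fcer1a was at 0 in KO replicate 2. Of the 6 markers that were tested 1 rose and 1 fell, where 9.55% of all tested genes were called. The part of these cells in the Gata2 values was not tested.

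Zfpm1 (ENSMUSG00000049577, chr8:122282141-122337251, plus strand) encodes FOG1, which binds the amino-terminal zinc finger of GATA1 and is needed for much of its activity. Its values were 159.1, 134.8 and 175.7 FPKM in WT and 183.6, 186.3 and 191.7 in KO. The KO libraries lay just above the highest WT library, and the WT libraries were spread widely. The log2 fold change was 0.26 with an interval of 0.04 to 0.49, which did not pass (limma, adjusted p = 0.124).

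Of the helix-loop-helix proteins, Tal1 (ENSMUSG00000028717, chr4:115056426-115071755, plus strand), the erythroid DNA-binding partner of the complex, had 186.2, 177.5 and 202.8 FPKM in WT and 223.9, 216.2 and 227.8 in KO. The groups did not overlap, but the log2 fold change of 0.24 (interval 0.09 to 0.38) missed the threshold (limma, adjusted p = 0.0582). Lyl1 (ENSMUSG00000034041, chr8:84701457-84704715, plus strand), a close paralog of Tal1 that can take its place in stem and progenitor cells, had 110.1, 94.3 and 108.3 FPKM in WT and 154.5, 154.9 and 150.3 in KO. These groups were far apart, and all 3 KO libraries were close together. Lyl1 rose to 147.0% of its WT mean, a log2 fold change of 0.55 with an interval of 0.39 to 0.72 (limma, adjusted p = 0.00787).

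Tcf3 (ENSMUSG00000020167, chr10:80409514-80433647, minus strand) encodes the E proteins E12 and E47, dimer partners of both TAL1 and LYL1. Its level was 65.2, 60.2 and 65.3 FPKM in WT and 73.4, 77.6 and 82.0 in KO. All KO libraries were higher, and the log2 fold change was 0.28 with an interval of 0.14 to 0.43 (limma, adjusted p = 0.0372). That call was lost in each of the 6 fits that left out 1 library (adjusted p 0.0564 to 0.137), and with no filter, median-of-ratios or non-globin scaling, with adjusted p up to 0.224.

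Lmo2 (ENSMUSG00000032698, chr2:103957986-103981878, plus strand), the LIM-domain bridge without DNA binding of its own, had the highest mean FPKM of the members in WT. It had 245.4, 236.4 and 250.3 FPKM in WT and 176.8, 175.9 and 182.6 in KO. The groups were well apart and each was tight, with coefficients of variation of 2.90% and 2.05%. Lmo2 fell to 73.1% of its WT mean, a log2 fold change of -0.45 with an interval of -0.56 to -0.34 (limma, adjusted p = 0.00475). With 2 of the scalings it did not pass, at adjusted p = 0.0775 (TPM) and 0.103 (non-globin).

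Ldb1 (ENSMUSG00000025223, chr19:46032593-46045214, minus strand), the dimerizing factor that binds LMO2 and links distant complexes, moved least. It had 93.7, 88.9 and 99.2 FPKM in WT and 94.9, 101.5 and 108.3 in KO, and the groups overlapped. The log2 fold change was 0.11 with an interval of -0.05 to 0.27 (limma, adjusted p = 0.315). In GENCODE M21 its exons share 177 bases with Pprc1, which runs the opposite way, and a strand setting for the counting is not stated. Ssbp3 (ENSMUSG00000061887, chr4:106910701-107049694, plus strand), of a family that binds LDB1 and protects it from degradation, had 30.2, 28.8 and 32.5 FPKM in WT and 35.2, 35.4 and 37.4 in KO. All KO libraries were above all WT libraries, with a log2 fold change of 0.23 and an interval of 0.09 to 0.38 that missed the threshold (limma, adjusted p = 0.0578).

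Cbfa2t3 (ENSMUSG00000006362, chr8:122625141-122699109, minus strand) encodes ETO2, the corepressor that holds the complex in check before terminal differentiation. It had 7.59, 5.77 and 5.62 FPKM in WT and 9.09, 7.88 and 7.43 in KO. WT replicate 1 was above the lowest KO library, so the groups overlapped, and the log2 fold change of 0.32 (interval 0.04 to 0.61) did not pass (limma, adjusted p = 0.136). As with Gata2, replicate 1 was the highest library in each group. Its exons share 295 bases with the antisense gene Gm10612, which was listed at 0.164 FPKM on average.

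**Figure D2:**
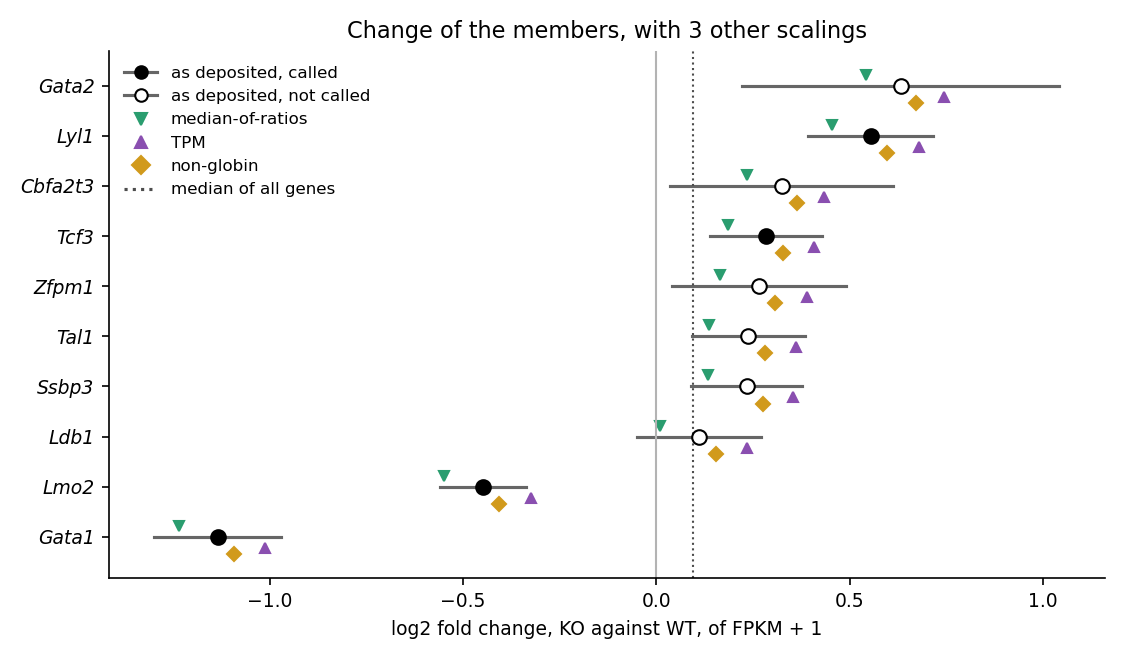
Log2 fold change (KO against WT, of FPKM + 1) of each member with its 95% confidence interval from limma, filled where the adjusted p is under 0.05; triangles and diamonds show the same value with 3 other scalings of the libraries. Each other scaling shifts all members together and keeps their order from Gata1 at -1.13 to Gata2 at 0.63; the dotted line is the median of all tested genes at 0.09.

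The scaling of the libraries moves all genes at once, so the changes are also given relative to the median of all tested genes. That median was 0.09 as deposited, 0.01 with median-of-ratios, 0.13 with non-globin and 0.20 with TPM scaling. Relative to it, Gata1 stood at -1.24 to -1.21 over these scalings, Lmo2 at -0.56 to -0.52, Lyl1 at 0.45 to 0.48 and Gata2 at 0.53 to 0.55. Tcf3 was 0.18 to 0.21 above the median gene, Tal1 0.13 to 0.16, Ssbp3 0.13 to 0.16, Zfpm1 0.16 to 0.19 and Cbfa2t3 0.23 to 0.24. Ldb1 moved with the median gene, at 0.00 to 0.04 from it. Every member kept its direction as deposited in all 15 alternatives. Gata1 and Lyl1 also kept their calls in all of them, and Lmo2 in 13. Gata2, Tal1 and Ssbp3, which missed the threshold as deposited, passed when only genes with a mean of at least 5 FPKM were tested (limma, adjusted p = 0.0484, 0.0465 and 0.0449), and with voom (adjusted p = 0.0370, 0.0460 and 0.0471). Gata2 passed in 6 of the 15 alternatives in all, the others being TPM scaling (limma, adjusted p = 0.0175), non-globin scaling (0.0269), the replicate block (0.0219) and the fit without WT replicate 1. Tal1 passed in 3, the third being without WT replicate 3 (limma, adjusted p = 0.0467), and Ssbp3 in 2. Cbfa2t3 passed in 1, with TPM scaling (limma, adjusted p = 0.0477), and Zfpm1 and Ldb1 in none of the 15.

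With Gata1 lower, the order of the levels differed between the groups. In WT it ran from Lmo2 through Tal1, Zfpm1, Gata1, Lyl1, Ldb1, Tcf3 and Ssbp3 to Cbfa2t3 and Gata2. The WT ranges of Zfpm1 and Gata1 overlapped, as did those of Lyl1 and Ldb1 and those of Cbfa2t3 and Gata2. In KO the order was Tal1, Zfpm1, Lmo2, Lyl1, Ldb1, Tcf3, Gata1, Ssbp3, Gata2 and Cbfa2t3, and only the last pair overlapped. Gata1 thus ranked 4 of 10 in WT and 7 of 10 in KO, below Tcf3 and Ldb1, by FPKM as deposited. If no KO fragment could come from the Gata1 UTR, its KO mean would correspond to 91.6 FPKM. That lies above the KO mean of Tcf3 (77.6) and below that of Ldb1 (101.6), so its place relative to Tcf3 is uncertain. Both orders also depend on the exon length by which each gene was scaled.

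Ratios of 2 members within a library do not depend on how the library was scaled. Their absolute size depends on the exon lengths used, but their fold change between the groups does not. Of 9 such ratios 7 had groups that did not overlap, 4 higher and 3 lower in KO. With 3 against 3 libraries an exact permutation test cannot go below p = 0.1, which these 7 reached (adjusted p = 0.129 over the 9 ratios), so none passes a threshold of 0.05. The ratio of Gata2 to Gata1 was 0.0554, 0.0353 and 0.0293 in WT and 0.161, 0.138 and 0.125 in KO. It was 3.65 times higher in KO, or 2.70 times if no KO fragment could come from the Gata1 UTR. By FPKM Gata2 thus remained the far less abundant of the pair in every library.

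Lyl1 to Lmo2 went from 0.427 ± 0.0255 to 0.859 ± 0.0316 (SD, n = 3 each), a 2.01-fold higher ratio, so that Lyl1 came near the FPKM of Lmo2 in KO. Lyl1 to Tal1 went from 0.552 ± 0.0339 to 0.689 ± 0.0285, and Tal1 stayed the more abundant of these paralogs in all 6 libraries. Lmo2 to its partner Ldb1 dropped from 2.60 ± 0.0691 to 1.76 ± 0.0920. Gata1 to Tal1 dropped from 0.794 ± 0.0254 to 0.304 ± 0.00787, and Gata1 to Zfpm1 from 0.964 ± 0.0790 to 0.362 ± 0.00545. Both of these Gata1 ratios are given without allowing for a lost UTR, which would lower them in KO.

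Among the partners other than Gata1, Lmo2 and Lyl1 the ratios moved less. Ssbp3 to Ldb1 was 0.325 ± 0.00282 in WT and 0.355 ± 0.0140 in KO, apart but only 1.09-fold. Tcf3 to Tal1, the subunits of the E-box binding dimer, was 0.337 ± 0.0140 in WT and 0.349 ± 0.0183 in KO, with overlapping groups (exact permutation test, two-sided, p = 0.5). The same held for Cbfa2t3 to Tal1 at 0.0337 ± 0.00659 and 0.0365 ± 0.00398 (exact permutation test, p = 0.5).

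**Figure D3:**
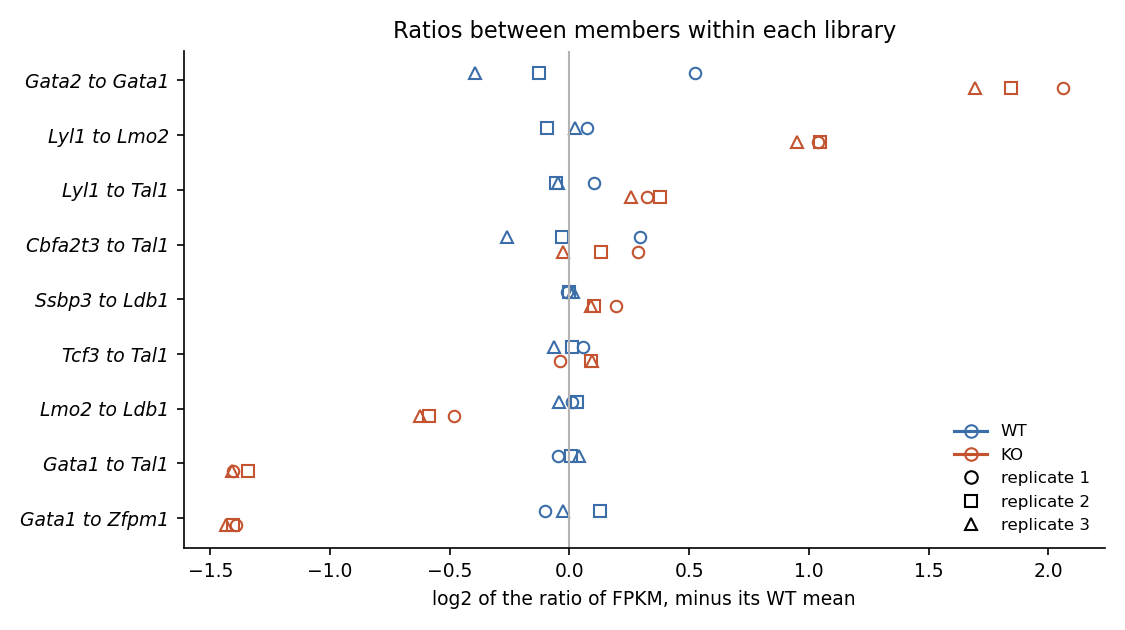
Log2 of 9 ratios of FPKM between members in each library, minus the mean of the WT libraries, for WT (blue) and KO (red), with symbols for the replicate number. The 3 ratios that fell involve Gata1 or Lmo2, and Gata2 to Gata1 shows the widest spread within WT.

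The members' own promoters were searched for the letters that GATA factors and the TAL1 dimer bind, since these genes are known to be bound by their own products. RefSeq windows of GRCm38.p6, from 250 bases before to 50 after the start, matched 9 of the 10 members, all but Lmo2, in 15 windows. A GATA site (AGATAA, with T also allowed first and G also allowed last, on either strand) was in 4 windows, of Tal1, Ldb1, Cbfa2t3 and Ssbp3, and in 29.8% of all 32851 windows. An E-box (CAGCTG, with A or G also allowed as the inner C, on either strand) was in 6 windows and in 44.3% of all. A CTG followed 7 to 9 bases later by GATA, the spacing of the joint motif, was in 3 windows and in 7.18% of all, and it can overlap with both other motifs. Shown 5′ to 3′ on the gene's strand with the matched letters in capitals, the sites of Tal1, Cbfa2t3 and Ssbp3 are the examples in which GATA and CTG (or their reverse complements TATC and CAG) stand at that spacing, and that of Ldb1 is the nearer to the start of 2 GATA sites in its window, which holds no match at that spacing.
Tal1, chr4:115056276-115056305, 140 bases before the start: cagcgaggaaCTGGGTGTTGAGATAcggaa
Cbfa2t3, chr8:122699207-122699236, 117 bases before the start: cccaccgcatTATCACTGTGACACAGctgg
Ssbp3, chr4:106923129-106923158, 46 bases before an internal start: ccctgcctctTATCTGTGTGGGACAGtgtc
Ldb1, chr19:46037255-46037280, 200 bases before an internal start: ccagccccccTTATCTttctatccct
In Cbfa2t3 the CAG of the match also begins an E-box, CAGCTG, which lies 104 bases before the start. None of these letters was found in the windows of Gata1, Zfpm1 and Tcf3, which says nothing of sites elsewhere. These matches are descriptions of sequence. The 4 genes shown had log2 fold changes of 0.11 to 0.32 and none passed the test.

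Paralogs, inhibitors and further partners of the complex numbered 25, of which 17 were tested, 2 rose, 2 fell and 13 did not pass. Their median log2 fold change was 0.17, against 0.09 over all tested genes. Of all tested genes 5.93% were called higher and 3.62% lower. Runx1t1, which encodes ETO and is a paralog of Cbfa2t3, had 7.36, 6.25 and 6.32 FPKM in WT and 2.89, 3.20 and 4.06 in KO. All KO libraries were lower, and Runx1t1 fell by 0.81 on the log2 scale (SE 0.115, limma, adjusted p = 0.0116). The call was lost without KO replicate 2 alone (adjusted p = 0.059). By FPKM Runx1t1 stood near Cbfa2t3 in WT, and below it in every KO library.

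Klf1, the erythroid Kruppel-like factor and a known target of the complex, fell by 0.35 (limma, adjusted p = 0.0372). Ssbp4, a paralog of Ssbp3, rose from 16.2 ± 0.670 to 19.4 ± 0.888 FPKM (SD, n = 3 each), which is 0.25 on the log2 scale (limma, adjusted p = 0.0456). Smarca4, the BRG1 ATPase that remodels chromatin at erythroid genes, rose by 0.22 (limma, adjusted p = 0.0406). The calls of Ssbp4 and Smarca4 were lost in each fit that left out 1 library and that of Klf1 in 5 of 6, with adjusted p up to 0.226, 0.313 and 0.264 over the alternatives.

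Of those that did not pass, Runx1, a factor of definitive haematopoiesis, had 0.36 on the log2 scale (limma, adjusted p = 0.0535) and its partner Cbfb 0.38. Id1, an inhibitor that sequesters E proteins such as TCF3, had 0.33, and Cbfa2t2, the other ETO paralog, 0.23. All KO libraries were above all WT libraries in these 4 genes, which were named for having the smallest p among those that did not pass. That held for 8 of the 17 tested genes of the list and for 26.8% of all tested genes. The 8 that were not tested, among them Gata3, Gata6, Zfpm2, Tal2, Lmo1 and Ldb2, ranged from 0 to 1.24 FPKM over the libraries. Every member exceeded these in every library. Lmo4, a paralog of Lmo2, had 11.3 FPKM on average in each group.

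Of 15 textbook genes activated by GATA1 and its complex 14 were tested, 8 fell and 6 did not pass. Over all tested genes 3.62% were called lower. The median log2 fold change of the 14 was -0.31, against 0.09 over all tested genes. All 14 values were negative, where 3190 of all 11142 were. KO libraries were all below WT in 12 of the 14, where 8.8% of all tested genes had this. Ahsp was not analysed here. Trim58, a ubiquitin ligase of late erythroblasts, had 41.4, 34.9 and 33.5 FPKM in WT and fell to 22.9, 21.6 and 24.4 in KO, a change of -0.65 on the log2 scale (limma, adjusted p = 0.0106). That call was lost without KO replicate 1 or KO replicate 2 (highest adjusted p 0.0561). Alas2, the first enzyme of haem synthesis in red cells, fell by 0.43.

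Epb42, a membrane skeleton protein, fell by 0.26, Slc25a37, a mitochondrial iron importer, by 0.29 and Klf1 as above. Bcl2l1, a survival gene, and Slc4a1, the band 3 anion exchanger, also fell and were named for completeness after their values were seen. Hbb-bt (log2 fold change -0.33), Hemgn (-0.23), Hba-a1 (-0.29) and Gfi1b (-0.11) did not pass. Of the 7 named here only Trim58 kept its call in more than 10 of 15 alternatives, and with TPM or non-globin scaling 1 of the 8 genes was called. The calls also fell to 1 without KO replicate 1 or KO replicate 2, to 3 without WT replicate 3 or KO replicate 3, and to 4 without WT replicate 1.

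Genes known to be repressed by GATA1 numbered 10, of which 1 rose, where 5.93% of all tested genes were called higher. Their median log2 fold change was 0.15, against 0.09 over all tested genes. The gene that rose was Rgs18, a regulator of G protein signalling in platelets, with 11.2, 14.0 and 8.27 FPKM in WT and 27.4, 20.4 and 17.8 in KO, a change of 0.92 on the log2 scale (limma, adjusted p = 0.0416). That call held in 1 of the 6 fits that left out 1 library and not with no filter or median-of-ratios scaling (0.126 was the highest adjusted p). Kit, the stem cell factor receptor, had a log2 fold change of 0.29, Myc 0.28 and Spi1, the myeloid factor PU.1, 0.17. Rgs18, Gata2, Tal1 and Lyl1 are also expressed by megakaryocytes, and so is Gata1, which fell. The sum of 12 markers of that lineage differed between the groups. It ranged over 249.5 to 483.9 FPKM among WT and over 532.0 to 960.4 FPKM among KO libraries. Of these 12, 8 rose, where 5.93% of all tested genes were called higher, and none of the 12 was at 0 in any library. All KO libraries were above all WT libraries in 11 of the 12, where 26.8% of all tested genes had this. Ppbp overlapped, with a KO mean at 98.9% of the WT mean. The part of megakaryocytes in the values of Gata2, Lyl1 and the other members was not tested.

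**Figure D4:**
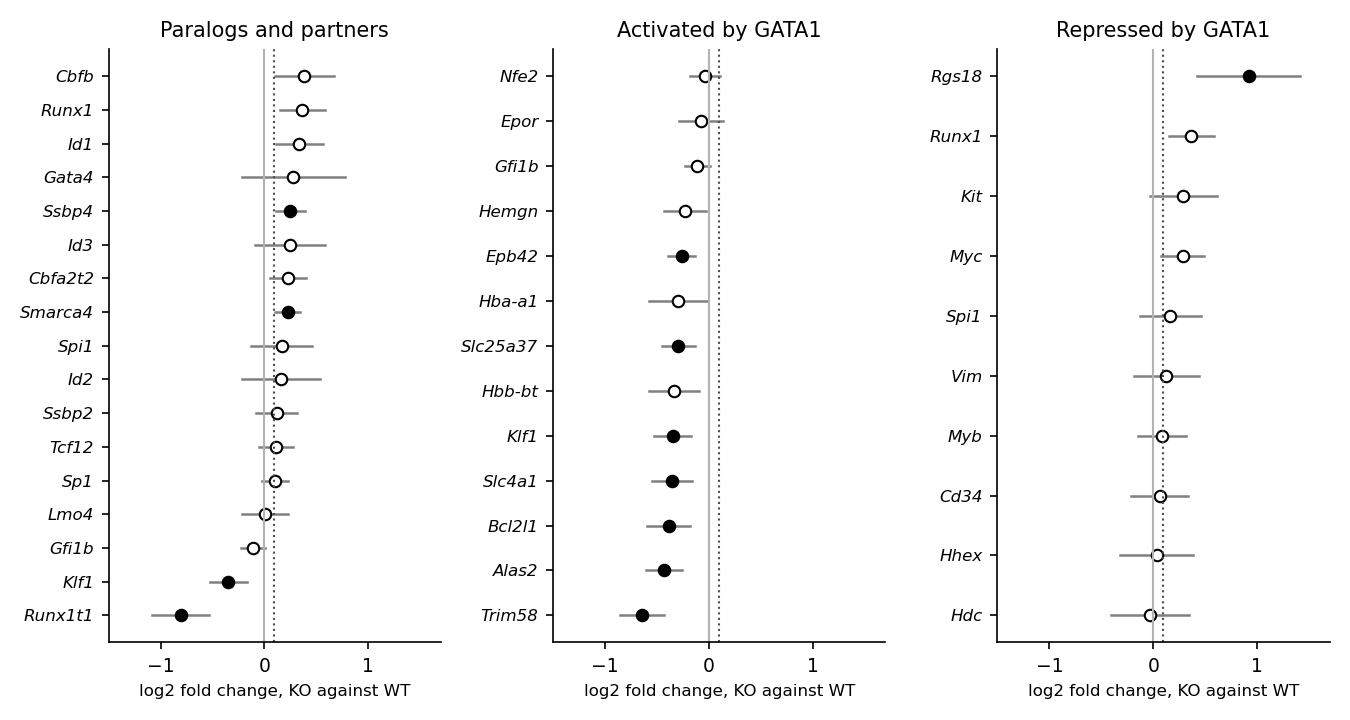
Log2 fold changes (KO against WT) with 95% confidence intervals of tested paralogs and partners, genes activated by GATA1 and genes repressed by GATA1, filled where limma's adjusted p is under 0.05, with the median of all tested genes at 0.09 as a dotted line. All 13 activated genes drawn lie below 0, and of the repressed genes only Hdc does.

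The profile most like that of Gata1 over the 6 libraries, by the root mean square difference of gene-centred log2 values, belonged to Btn1a1 (0.0449), followed by Aqp8, Ptdss2, Abcb9 and Ccdc189 (0.0824). Of these only Ptdss2, an enzyme of phosphatidylserine synthesis, had more than 10 FPKM, with 49.5, 50.5 and 62.3 in WT and 21.9, 24.0 and 26.0 in KO. It was also the only one of the 5 among the nearest with a pseudocount of 0.1 or a mean of at least 5 FPKM. The log2(FPKM + 1) scale understates changes of low genes, so a like profile is not an equal fall. The KO mean was 45.1% of the WT mean in Gata1 and 44.3% in Ptdss2. In Btn1a1 it was 29.4%, in Aqp8 17.3%, in Abcb9 34.0% and in Ccdc189 24.6%. Of the other members Lmo2 came closest to Gata1, at 0.347 and rank 195 of 11141 genes, and Ldb1 followed at rank 5262. Gata2 was the farthest member, at rank 10770. The other members ranked in the order of their log2 fold changes given above, so this ranking is not a separate result.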

How the data were processed

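The authors deposited FPKM for each gene in each library. Per the labels' protocols total RNA was extracted with TRIzol and read from both ends over 150 bases. Aligner, counting program, build and strand setting are not stated in what was used here. Of 26014 genes 23607 have the positions of GENCODE M21 (GRCm38), among them 9 of the 10 members, all but Ldb1. Lines of spilled text (7) and 1 empty line were left out, and 24 names turned into dates were restored from identifiers. Depth was read from whole-fragment steps with merged exon lengths. FPKM counts all exons, so a lost UTR lowers the value. Replicates differed by more than counting noise (mean chi-square of 7.16 to 21.8 per gene, median 1.01 to 2.90, over the better covered genes).

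The test was limma 3.58.1 in R 4.3.3 (eBayes with trend) on log2(FPKM + 1), two-sided, for genes with a mean of at least 1 FPKM. This scale understates changes of low genes. Ratios used raw FPKM. The code was tested on simulated data. Named were all members, up to 6 listed genes past the threshold and up to 4 others per list by smallest p, and the 5 genes most like Gata1; 1 gene that the rule names is not reported here. Members and lists were chosen with earlier results of these data known. The alternatives tried were no filter, a mean of at least 5 FPKM, a pseudocount of 0.1, 3 scalings (brought to a geometric mean of 1), a replicate block, library weights, each library left out and, added after seeing the data, limma's voom on recovered fragments. Python 3.11.15, pandas 2.3.3, numpy 2.4.6 and matplotlib 3.10.9 were used.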

Additional observations from a re-analysis of the deposited data

How the results depend on the processing

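Over all genes 661 were higher and 403 lower; without 1 library these ran from 62 to 736 and from 111 to 395. Members called higher, 2 as reported, were 1 with no filter or median-of-ratios scaling, 4 with TPM scaling, 5 with a mean of at least 5 FPKM or voom, and 1 to 2 without 1 library. Members called lower, 2 as reported, were 1 with TPM or non-globin scaling and 2 in each fit without 1 library. With no filter 267 genes were higher and 246 lower, with median-of-ratios scaling 252 were higher against 495 lower, with non-globin scaling 329 and 135, and with TPM scaling 780 and 135. Related genes called higher, 2 as reported, were 0 with no filter, median-of-ratios or non-globin scaling, 4 with TPM scaling or voom and 0 in each fit without 1 library. Those called lower, 2 as reported, were 1 with TPM or non-globin scaling, 1 with no filter and 0 to 2 without 1 library. Activated targets called lower, 8 as reported, were 2 with no filter, 1 with TPM or non-globin scaling and 1 to 8 without 1 library. Repressed targets called higher, 1 as reported, were 0 with no filter or median-of-ratios scaling, 3 with TPM scaling, 2 with voom and 0 to 1 without 1 library. Of the 5 genes most like Gata1, 1 remained with a pseudocount of 0.1 and 1 with a mean of at least 5 FPKM. All 9 ratios kept their direction with a pseudocount of 1 and without each library, although Cbfa2t3 to Tal1 came to 0.000678 (log2) without WT replicate 3. The cause of these shifts was not tested. Nothing states that the replicate numbers pair the libraries. Deviations of same-numbered libraries had r = -0.0974, 0.0116 and 0.256. The last was the highest of any WT and KO pair, while WT replicate 1 correlated best with KO replicate 2. With 3 libraries per group these values cannot decide whether the libraries are paired. With the replicate number as a block 686 genes were higher and 386 lower, 3 members were higher and 2 lower, 1 related gene was higher and 2 repressed targets were higher. Depth limits only the lowest genes, none of them a member.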

Other observations

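Of the 10 members 8 had a smaller coefficient of variation among KO libraries than among WT libraries. The share among all tested genes was not computed, so this is not shown to be particular to the members. For Zfpm1 the coefficient of variation was 13.1% in WT and 2.21% in KO, and for Lyl1 8.32% and 1.67%. The chi-square of fragment counts between replicates was taken over the 13549 to 14113 better covered genes of each pair. Its mean was 18.5 to 21.8 per gene for the WT pairs and 7.16 to 11.6 for the KO pairs. Its median was far lower, at 2.25 to 2.90 for the WT pairs and 1.01 to 1.28 for the KO pairs.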
